A study of Mus musculus with 6 samples.

Results

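The genes described here are 10 genes of bone morphogenetic protein (BMP) signalling, chosen by symbol among the 34745 genes of the deposited table. They are the ligands Bmp2, Bmp4, Bmp5 and Bmp7, the receptors Bmpr1a and Bmpr2, the antagonists Nog, Grem1 and Chrdl1, and the response gene Id1. Each symbol matched a single row. Prostate tissue of 6 male C57BL/6 mice was sequenced as RNA, 3 per group, in a model of benign prostatic hyperplasia. T + E2 mice, 6 to 8 weeks old at the start, carried 1 subcutaneous slow-release pellet of testosterone and estradiol at a time for 12 weeks, renewed monthly. CON mice of the same age had the skin of the back opened and closed and received no pellet. A pellet without hormone was not part of the design, so hormone and pellet cannot be told apart. Each library came from bulk prostate, in which fewer cells of a type and less RNA per cell cannot be told apart.

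BMPs are secreted proteins of the TGF-beta superfamily. A BMP binds a complex of type I receptors, such as Bmpr1a, Bmpr1b and Acvr1, and type II receptors, such as Bmpr2, and the activated complex phosphorylates Smad1, Smad5 and Smad9, which enter the nucleus with Smad4 and switch on genes such as those of the Id family. Noggin, gremlin and the chordins bind the ligands outside the cell and keep them from the receptors, and Smad6 and Smad7 inhibit the pathway inside the cell. In the developing prostate, Bmp4 and Bmp7 are known to restrain ductal budding and branching.

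Among the 10 genes, Id1 rose in the T + E2 group and none of the others passed the test, beside 19.6% of all 15580 tested genes that did. The Id1 call was lost in 8 of 15 alternatives. Id1 was 1.84-fold higher, with all 3 T + E2 mice above all 3 CON mice. For the ligands Bmp2, Bmp4 and Bmp7, the receptors Bmpr1a and Bmpr2 and the antagonist Chrdl1 the fitted changes lay between -0.31 and 0.32 on the log2 scale. Bmp5, Nog and Grem1 had at most 11 counts in any mouse and were too low to be tested. Of 49 tested genes of the wider pathway (ligands, receptors, antagonists, proteases, Smads and targets), 9 were higher and 10 lower in T + E2 mice.

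Read totals were 14816146 to 16555549 counts per mouse, so that 3 counts were worth 0.181 to 0.202 CPM, counts scaled to 1 common library size. CPM below are scaled by TMM, a factor per library that makes most genes equal on average, unless stated otherwise. The deposited FPKM are scaled by total counts, without TMM, and divided by the length of the gene. FPKM alone is therefore used to compare one gene with another. Because the scaling differs, groups can overlap in CPM but not in FPKM, or the reverse. Markers of the prostate were present in every mouse: the 5 genes Pbsn, Tgm4, Msmb, Spink1 and Hoxb13 summed to 37900 to 50900 CPM in CON mice and 15400 to 17200 in T + E2 mice. Of the 5, Pbsn fell 9.81-fold and Tgm4 7.5-fold in T + E2 mice. Msmb rose 2.15-fold and Spink1 1.65-fold, and Hoxb13 did not pass the test. Seminal vesicle transcripts stood out in CON replicate 2, with 9910 CPM summed over 5 markers, and in T + E2 replicate 2, with 601 CPM, against at most 3.71 in the other 4 mice. The make-up of the 2 sums differed. Svs2, Svs4 and Svs5 had 222, 4590 and 5040 CPM in CON replicate 2, and 484, 6.64 and 110 CPM in T + E2 replicate 2. Calls that were lost, and a direction that turned, without these 2 libraries are given with and without them.

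By level, the BMP genes fell into a high, a middle and a very low tier. In CON mice Bmp7 averaged 25.9 ± 2.03 FPKM (SD, n = 3), Id1 23.9 ± 9.2 and Bmpr1a 17.1 ± 1.36, and the ranges of neighbours in this order overlapped. Bmpr2 followed at 5.69 ± 0.849 FPKM, then Chrdl1 at 3.5 ± 0.422, Bmp4 at 3.2 ± 0.411 and Bmp2 at 1.43 ± 0.118. Chrdl1 and Bmp4 overlapped in CON mice, whereas Bmpr2 and Bmp2 stood apart from their neighbours. Nog, Bmp5 and Grem1 averaged 0.167, 0.102 and 0.0526 FPKM, and the ranges of neighbours in this order overlapped, while those of Nog and Grem1 did not. In T + E2 mice Id1, at 42.6 ± 3.64 FPKM (SD, n = 3), lay above Bmp7 at 20.3 ± 1.97 and Bmpr1a at 18.8 ± 0.882, with the order of the lower genes as in CON mice. The order in the middle tier depended on gene length: the FPKM correspond to 2094 bases for Id1, 3834 for Bmp4 and 11497 for Chrdl1, where the exons annotated in GENCODE release 21 cover 1160, 2248 and 6758 bases. With the latter lengths Id1 led in both groups, at 43.1 and 77 FPKM, and Chrdl1, Bmpr2 and Bmp4 came to 5.96, 5.81 and 5.46 FPKM in CON mice.

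**Figure D1:**
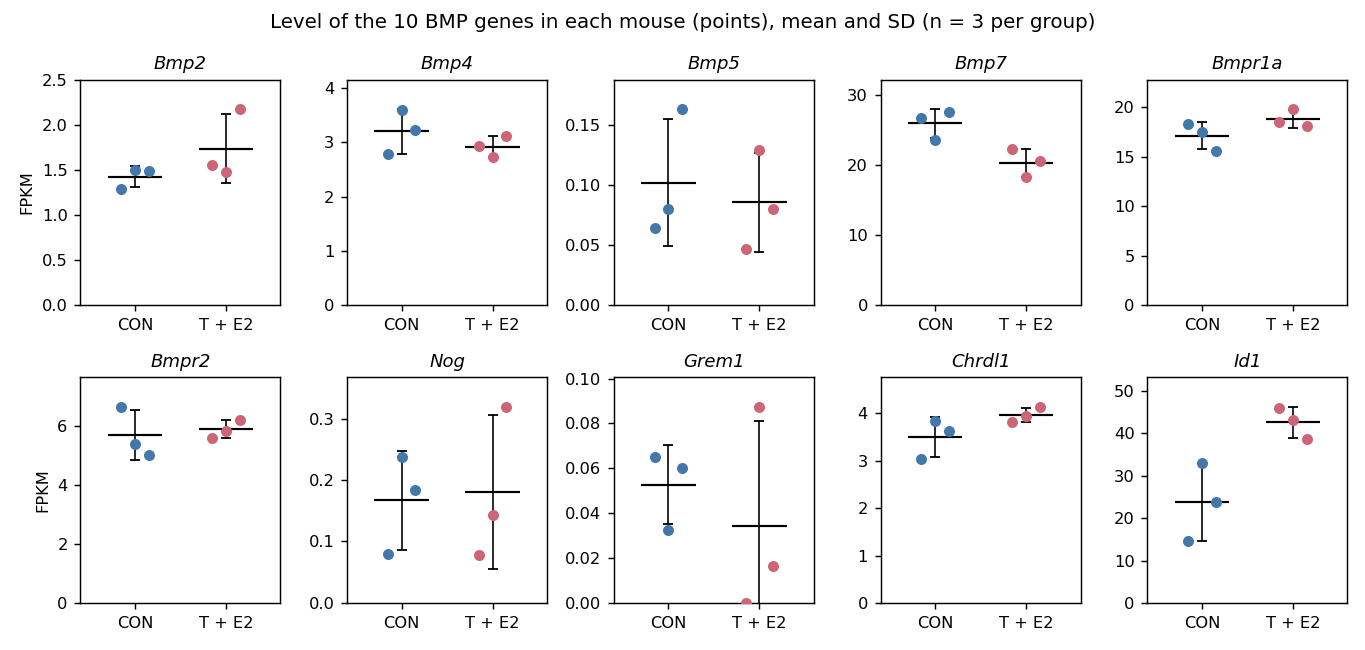
FPKM of each of the 10 BMP genes (vertical axes, each from 0) in the CON and T + E2 groups. Points are mice, long lines the group means and bars the SD (n = 3 per group, cut at 0 for Grem1). Id1 sits at 14.7 to 33.1 FPKM in CON mice and 38.7 to 46 in T + E2 mice, while the groups overlap for Bmp2, Bmp4, Bmp5, Bmpr1a, Bmpr2, Nog, Grem1 and, narrowly, Chrdl1.

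Among the ligands, Bmp7 was the most abundant. It had 121, 107 and 129 CPM in CON mice and 108, 85.5 and 94.6 in T + E2 mice. The highest T + E2 mouse reached the lowest CON mouse on this scale, while the FPKM of the groups, 23.6 to 27.5 and 18.2 to 22.2, did not overlap. Its log2 fold change was -0.31 (standard error, SE, 0.12, 95% interval -0.58 to -0.04), and the adjusted p was 0.1 (quasi-likelihood test of edgeR, Benjamini-Hochberg over the 15580 tested genes), so the difference failed the correction (unadjusted p = 0.0285 in the same edgeR fit). It passed under none of the alternatives, with adjusted p from 0.055 to 0.257 in edgeR, DESeq2 and limma.

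Bmp4, which is made mainly by stromal cells in the developing prostate, had 10.5, 13.5 and 12.4 CPM in CON mice and 11.8, 10.5 and 11.8 in T + E2 mice. All T + E2 values lay within the CON range. The log2 fold change was -0.09 (SE 0.14, adjusted p = 0.675 by edgeR, 95% interval -0.42 to 0.23), which leaves room for a fold between 0.749 and 1.17. Without replicate 2 of both groups the estimate changed sign, to 0.04 (adjusted p = 0.917, edgeR).

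Bmp2, a ligand closely related to Bmp4, had 4.5, 5.19 and 5.34 CPM in CON mice and 5.81, 5.3 and 7.67 in T + E2 mice. One T + E2 mouse fell inside the CON range, and T + E2 replicate 3 was the highest of the 6. The log2 fold change of 0.32 (SE 0.2, adjusted p = 0.299 by edgeR) had an interval of -0.15 to 0.78. Bmp5 gave 4, 5 and 11 counts in CON mice and 3, 9 and 5 in T + E2 mice. Summed over the groups it reached 0.438 CPM in CON mice (exact 95% Poisson interval 0.267 to 0.676) and 0.366 in T + E2 mice (0.213 to 0.585). These sums were divided by total counts, without TMM. At this depth no difference was detectable, and such Poisson intervals cover counting error only.

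Expressed per length, Bmp7 made up most of the mRNA of the 4 ligands in every mouse. Its share of their summed FPKM was 86.5, 82 and 84.9% in CON mice and 83, 80.7 and 79.3% in T + E2 mice, so the groups overlapped. The ratio of Bmp7 to Bmp4 FPKM was 9.57, 6.56 and 8.54 in CON mice and 7.58, 6.67 and 6.6 in T + E2 mice, again with overlap. Its size depends on the gene lengths behind the FPKM. With the GENCODE lengths Bmp7 and Bmp4 averaged 30 and 5.46 FPKM in CON mice and 23.5 and 4.99 in T + E2 mice.

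Neither receptor differed detectably. Bmpr1a, the type I receptor also known as Alk3, had 124, 118 and 109 CPM in CON mice and 134, 138 and 124 in T + E2 mice. The groups met at their edges, and the log2 fold change was 0.17 (SE 0.09, adjusted p = 0.225 by edgeR, 95% interval -0.04 to 0.39). Bmpr2, the type II receptor, had 120, 96.5 and 93.1 CPM in CON mice and 108, 108 and 113 in T + E2 mice. CON replicate 1 was the highest of all and the other CON mice were the lowest, with a log2 fold change of 0.09 (SE 0.11, adjusted p = 0.629 by edgeR, 95% interval -0.17 to 0.35). The ratio of Bmpr1a to Bmpr2 FPKM ran from 2.75 to 3.25 in CON mice and from 2.91 to 3.4 in T + E2 mice.

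Of the antagonists, only Chrdl1 (chordin-like 1) was well above the detection limit. It had 34.2, 43.2 and 42.1 CPM in CON mice and 46.1, 45.8 and 47 in T + E2 mice. Every T + E2 mouse was above every CON mouse in CPM, and the T + E2 mice were close together. In FPKM the groups overlapped, with 3.85 in CON replicate 2 and 3.83 in T + E2 replicate 1. In CPM, Chrdl1 shared this arrangement with Id1 alone among the 10, or 2 of the 7 tested, and 40.7% of all tested genes had groups that did not overlap in CPM, 20.0% with T + E2 above and 20.7% with T + E2 below. The log2 fold change was 0.22 (SE 0.11, 95% interval -0.03 to 0.46) and did not pass the test (adjusted p = 0.19, edgeR). Nog, which encodes noggin, gave 2, 6 and 5 counts in CON mice and 2, 4 and 8 in T + E2 mice. Grem1, which encodes gremlin 1, gave 4, 2 and 4 counts in CON mice and 0, 6 and 1 in T + E2 mice. Summed per group, again without TMM, Nog came to 0.285 CPM in CON mice (exact 95% Poisson interval 0.151 to 0.487) and 0.301 in T + E2 mice (0.165 to 0.505), and Grem1 to 0.219 (0.105 to 0.402) and 0.151 (0.0605 to 0.31). Differences in Nog and Grem1 were not detectable at this depth.

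Id1, an inhibitor of basic helix-loop-helix transcription factors that BMP signalling induces directly in many cell types, had 30.2, 67.6 and 50.2 CPM in CON mice and 101, 91.1 and 80.2 in T + E2 mice. The CON mice were spread widely, from CON replicate 1, the lowest, to CON replicate 2, the highest, and all lay below the T + E2 mice. The means were 49.4 ± 18.7 CPM (SD, n = 3) and 90.7 ± 10.3 (SD, n = 3), a log2 fold change of 0.88 (SE 0.26, 95% interval 0.29 to 1.47) with an adjusted p of 0.0466 from edgeR. This made Id1 the 1 called gene among the 7 tested BMP genes, or 14.3%, beside 19.6% of all 15580 tested genes called in either direction (10.4% higher, 9.25% lower). With a further demand for an absolute log2 fold change over 1, none of the 7 was called, beside 7.64% of all tested genes. The median absolute log2 fold change was 0.22 over the 7 genes and 0.26 over all tested genes.

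The Id1 call was close to the threshold. The alternatives that lost it included total-count scaling (adjusted p = 0.056, edgeR) and limma on log2(FPKM + 1) (adjusted p = 0.0589), while DESeq2 kept it (adjusted p = 0.00152). The adjusted p in edgeR was 0.115 without CON replicate 3, 0.116 without T + E2 replicate 1, 0.114 without T + E2 replicate 2 and 0.0701 without T + E2 replicate 3. It was 0.0427 without CON replicate 1, where the log2 fold change dropped to 0.62, and 0.0137 without CON replicate 2, where it reached 1.17. Without replicate 2 of both groups the log2 fold change was again 1.17, with an adjusted p of 0.045 in edgeR. The direction was the same in all 15 alternatives. CON replicate 1, the mouse with the least Id1, also had the lowest sum over 4 basal cell markers (Krt5, Krt14, Trp63 and Krt15), 155 CPM, beside 224 and 258 in CON replicates 2 and 3 and 245 to 313 in T + E2 mice. Of these 4 only Trp63 passed the test. Among CON mice the basal sum was highest in replicate 3, but Id1 in replicate 2. CON replicate 1 was also the lowest CON mouse in the epithelial, smooth muscle, fat, skeletal muscle and urothelial sums. It was the highest in the fibroblast, leukocyte and nerve and glia sums. The sum over 5 endothelial markers was 99.5 to 140 CPM in CON mice and 142 to 169 in T + E2 mice, with 1 of the 5 past the test, and none of these basal or endothelial markers was at 0 in all mice. The part of either cell type in the Id1 result was not tested.

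**Figure D2:**
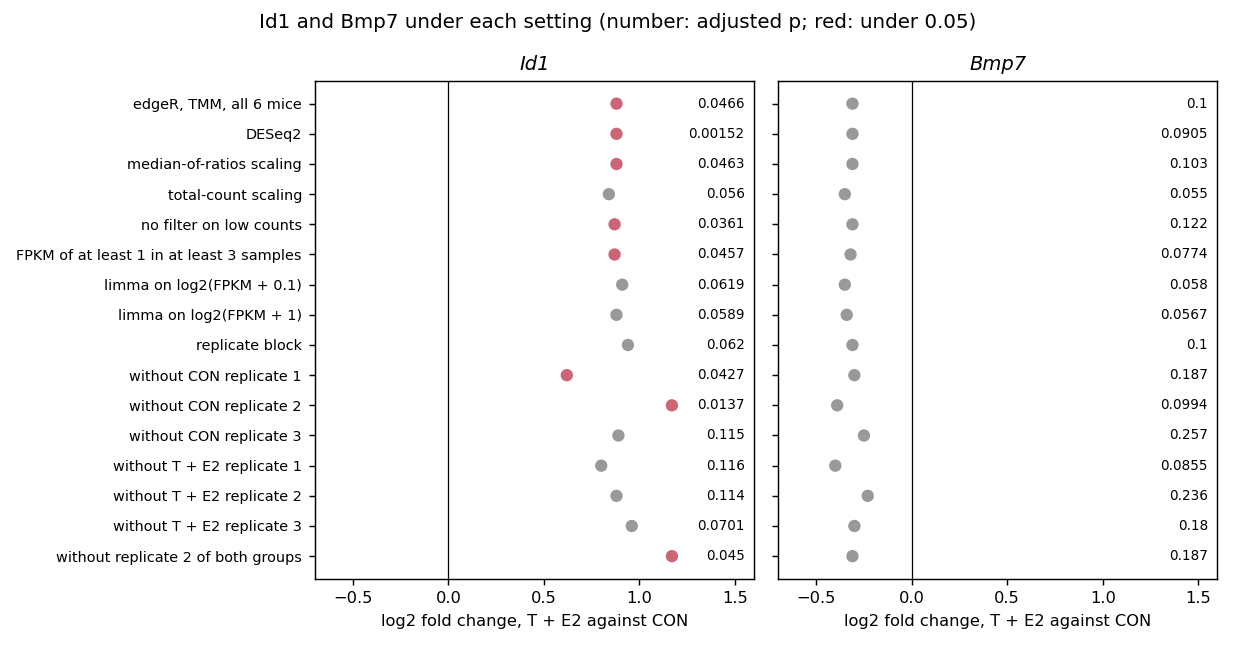
Log2 fold change (horizontal axes) of Id1 and Bmp7 under the edgeR fit with all 6 mice and each alternative setting. The number at the right is the adjusted p, and red points are under 0.05. Id1 runs from 0.62 to 1.17 and is on both sides of the threshold, and Bmp7 runs from -0.4 to -0.23 without passing it.

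The genes lie on several chromosomes of mouse build GRCm38: Bmp2 on chromosome 2 (133552159 to 133562885, plus strand), Bmp4 on chromosome 14 (46383520 to 46390669, minus strand), Bmp5 on chromosome 9 (75775364 to 75900310, plus strand) and Bmp7 on chromosome 2 (172868012 to 172940321, minus strand). Bmpr1a lies on chromosome 14 (34410734 to 34503341, minus strand) and Bmpr2 on chromosome 1 (59763400 to 59879014, plus strand). Nog lies on chromosome 11 (89300638 to 89302332, minus strand), Grem1 on chromosome 2 (113746164 to 113758646, minus strand), Chrdl1 on chromosome X (143285674 to 143394262, minus strand) and Id1 on chromosome 2 (152736251 to 152737410, plus strand). Exons of Bmp4, Bmp5 and Bmpr1a overlap exons of genes on the opposite strand, Gm15217, Gm26903 and Gm17110, which had 0, 1 and 6 counts over all 6 mice. The shared stretches cover 89, 1878 and 290 bases, and the exons of Bmp5 cover 4025 bases in all. Whether counting used the strand is not given in the sources used here, so reads of these overlaps cannot be assigned to one partner with certainty. Such reads may also have gone uncounted, so the counts and level of Bmp5 given here may be too low.

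To set the 10 genes in their pathway, 60 further genes were taken by role, of which 49 could be tested. Of these, 9 rose and 10 fell, 38.8% in all beside 19.6% of all tested genes. The median absolute log2 fold change of the 49 was 0.41. The share called was highest among the targets, where 2 rose and 3 fell of 7 tested, and among the Smads and their ubiquitin ligases, where 1 rose and 3 fell of 8. Of 14 tested antagonists and modulators, 3 rose and 2 fell. Of 6 tested ligands 2 rose, of 9 receptors and co-receptors 2 fell, and of 5 proteases 1 rose. Without replicate 2 of both groups, 5 genes rose and 7 fell, in a fit that called 8.65% of all genes tested in it.

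**Figure D3:**
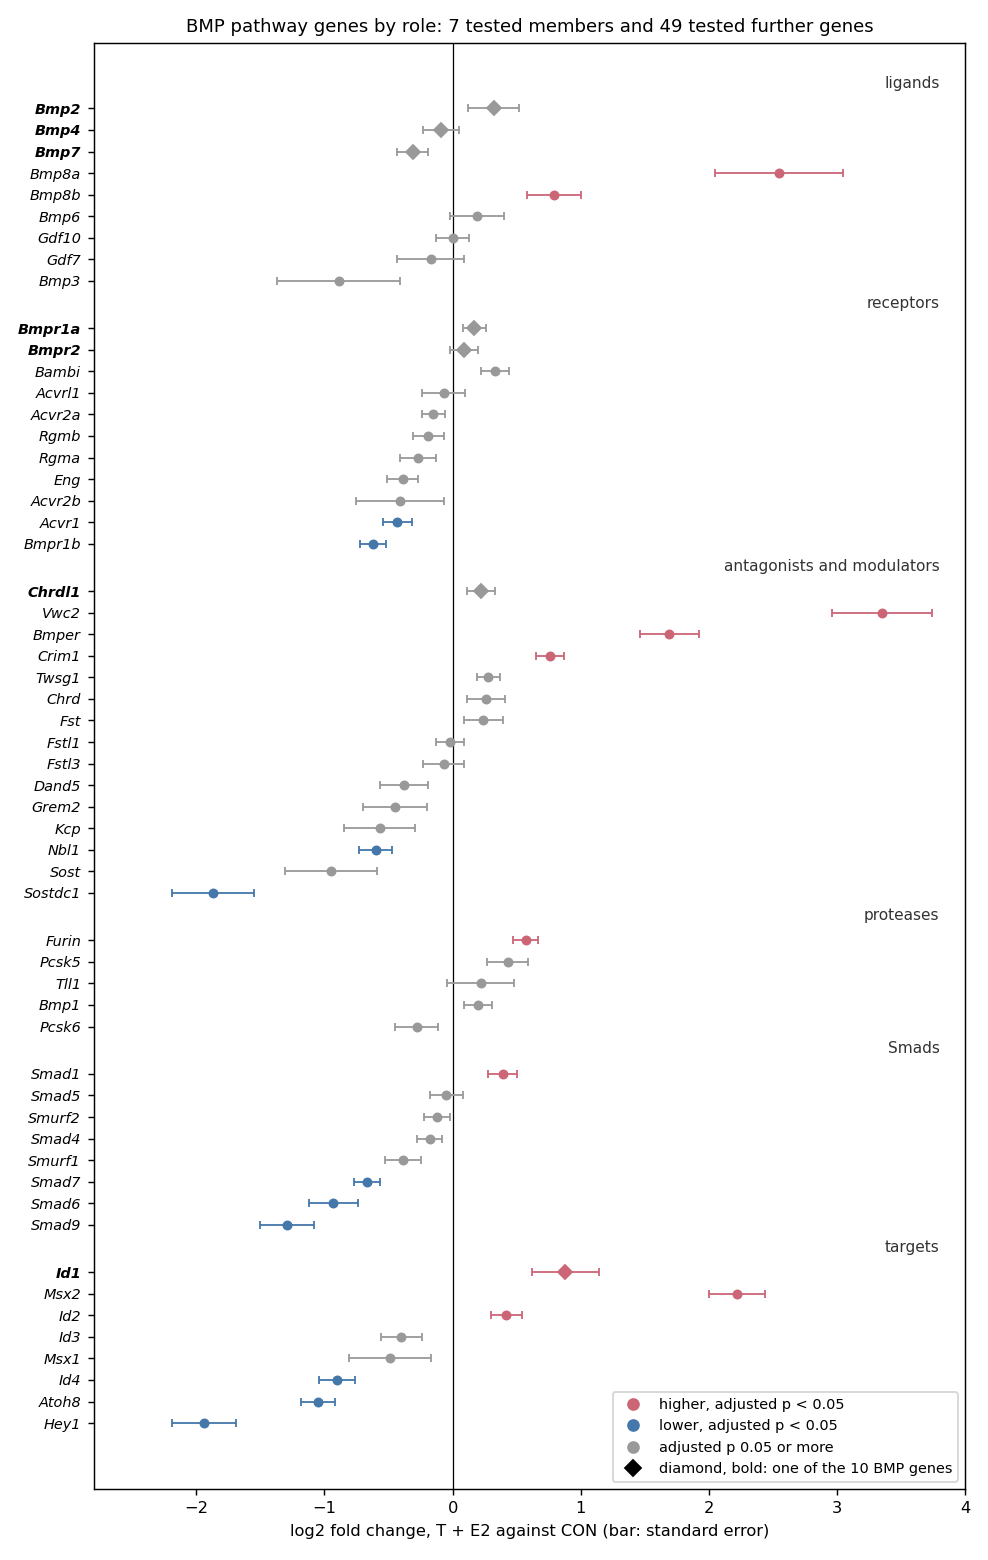
Log2 fold change of T + E2 against CON mice (horizontal axis, bars are standard errors) for the 56 tested BMP pathway genes, grouped by role. Diamonds and bold names mark the 7 tested genes of the 10, and colours mark genes past an adjusted p of 0.05. The tested ligands, receptors and antagonist of the 10 lie near 0, while Vwc2, Bmp8a, Msx2 and Bmper lie far to the right and Hey1 and Sostdc1 far to the left.

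Among the further ligands, Bmp8a and Bmp8b were called higher, both at low levels. Bmp8a had 5, 2 and 2 counts in CON mice and 13, 16 and 25 in T + E2 mice, and passed the filter on low counts through the T + E2 mice alone, a choice that favours a higher value there. Its log2 fold change was 2.55 (SE 0.5, adjusted p = 0.0102 by edgeR), and 0.0112 in the fit with no filter. The call was lost without replicate 2 of both groups (adjusted p = 0.0769). Bmp8b had 3.71, 3.02 and 4.53 CPM in CON mice and 6.99, 5.72 and 6.81 in T + E2 mice, a log2 fold change of 0.79 (SE 0.21, adjusted p = 0.0347 by edgeR). The Bmp8b call was kept without CON replicate 3 and lost when any other mouse was left out, with adjusted p from 0.0562 to 0.101, and without replicate 2 of both groups (0.129). Its exons share 133 bases with Ppie on the opposite strand, which had 2936 counts over all mice, and both Bmp8 genes share a similar stretch with Gm17244, so part of their reads is uncertain.

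Beside Bmpr1a and Bmpr2, which did not pass the test, the type I receptors Bmpr1b and Acvr1 fell. Bmpr1b had 354, 365 and 352 CPM in CON mice and 249, 209 and 241 in T + E2 mice, and decreased by 0.62 on the log2 scale (SE 0.1, adjusted p = 0.00393 by edgeR). This call was kept in every alternative. Acvr1, also known as Alk2, had 24.7, 21.9 and 21.2 CPM in CON mice and 16.2, 16.1 and 18 in T + E2 mice, and decreased by 0.43 (SE 0.11, adjusted p = 0.0306 by edgeR). The Acvr1 call was kept without T + E2 replicate 3 and lost without any other mouse, with adjusted p from 0.0542 to 0.0935, and without replicate 2 of both groups (0.154).

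Beside Chrdl1, other extracellular modulators moved in both directions. Vwc2, which encodes the secreted BMP antagonist brorin, had 0.464, 0.657 and 0.44 CPM in CON mice and 6.23, 6.76 and 3.07 in T + E2 mice. Its counts in CON mice were 7, 10 and 7, at or under the filter's minimum, so it too passed through the T + E2 mice, which had 90, 111 and 46. The fitted difference was 10.2-fold (log2 fold change 3.35, SE 0.39, adjusted p = 0.000999 by edgeR, and 0.000306 in the fit with no filter). The calls of Vwc2, Bmper, Crim1, Sostdc1 and Furin were kept in every alternative that tested them (Vwc2 did not pass the filter at an FPKM of 1), as were those of Smad9 and Smad7. Bmper, a secreted BMP-binding protein that can inhibit or promote signalling, had 1.92, 3.02 and 2.64 CPM in CON mice and 7.54, 9.62 and 7.41 in T + E2 mice, a log2 fold change of 1.69 (SE 0.23, adjusted p = 0.00198). Crim1, a membrane protein that binds BMPs, rose by 0.76 (SE 0.11, adjusted p = 0.00313), from 35.1 to 43.8 CPM in CON mice to 61.6 to 72.3 in T + E2 mice. Its exons share 123 bases with Fez2 on the opposite strand.

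Sostdc1, a secreted inhibitor of BMP and Wnt signalling, had 4.7, 6.37 and 3.65 CPM in CON mice and 0.968, 1.83 and 1.2 in T + E2 mice. It fell 3.65-fold (log2 fold change -1.87, SE 0.32, adjusted p = 0.00593 by edgeR). Nbl1, which encodes the antagonist DAN, had 124, 124 and 123 CPM in CON mice and 75.3, 71.3 and 97.9 in T + E2 mice, a log2 fold change of -0.60 (SE 0.13, adjusted p = 0.0147 by edgeR). The Nbl1 call was lost without T + E2 replicate 1 (adjusted p = 0.058) and without replicate 2 of both groups (adjusted p = 0.101). Among the proteases, Furin, which cleaves BMP precursors to their active form, rose from 141 to 163 CPM in CON mice to 205 to 243 in T + E2 mice (log2 fold change 0.57, SE 0.1, adjusted p = 0.00615).

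Of the Smads that carry the BMP signal, Smad9 fell, Smad1 rose and Smad5 did not pass the test. Smad9 had 35.2, 22.9 and 33.1 CPM in CON mice and 15.3, 9.92 and 12 in T + E2 mice. It decreased by 1.29 on the log2 scale (SE 0.21, adjusted p = 0.00427 by edgeR), and its transcript holds a repeat-like stretch found in 416 other genes. Smad1 had 54.5, 43.2 and 46 CPM in CON mice and 66.5, 60.8 and 61.6 in T + E2 mice, a log2 fold change of 0.39 (SE 0.11, adjusted p = 0.0392 by edgeR). The Smad1 call was kept without CON replicate 1 and lost without any other mouse, with adjusted p from 0.0702 to 0.127, and without replicate 2 of both groups (0.175). Smad5 averaged 72.5 and 70 CPM in the groups (log2 fold change -0.05, adjusted p = 0.813 by edgeR).

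Both inhibitory Smads fell, and whether this bears on Id1 was not tested. Smad6 had 15.8, 16.7 and 19.5 CPM in CON mice and 11.6, 7.55 and 8.07 in T + E2 mice, a log2 fold change of -0.93 (SE 0.19, adjusted p = 0.0111 by edgeR). Without replicate 2 of both groups the Smad6 call was lost (adjusted p = 0.0789). Smad7, which also inhibits TGF-beta signalling, had 30.3, 29.7 and 32.7 CPM in CON mice and 21.2, 18.8 and 18.3 in T + E2 mice, a log2 fold change of -0.67 (SE 0.1, adjusted p = 0.0032 by edgeR).

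The targets did not move as a block with Id1. Id2 had 58.1, 63.1 and 53.4 CPM in CON mice and 80.4, 86.9 and 66.9 in T + E2 mice, a log2 fold change of 0.42 (SE 0.12, adjusted p = 0.0437 by edgeR). The Id2 call was kept without T + E2 replicate 3 and lost without any other mouse, with adjusted p from 0.0633 to 0.132, and without replicate 2 of both groups (0.14). Of the Id2 transcript, 380 bases are 91.8% identical to Gm6175. Id3 had 77.7, 104 and 115 CPM in CON mice and 84.4, 71.3 and 68.5 in T + E2 mice, with overlap between the groups (log2 fold change -0.40, SE 0.16, adjusted p = 0.108). Id4 had 22.6, 19 and 22.1 CPM in CON mice and 10.5, 10.4 and 13.1 in T + E2 mice. It decreased by 0.90 on the log2 scale (SE 0.14, adjusted p = 0.00336 by edgeR), opposite to Id1 and Id2.

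The homeobox gene Msx2 rose from 1.19, 1.05 and 1.01 CPM in CON mice to 5.19, 5.54 and 4.54 in T + E2 mice, a 4.67-fold difference (log2 fold change 2.22, SE 0.22, adjusted p = 0.000481 by edgeR). Its relative Msx1 had overlapping groups and did not pass (log2 fold change -0.49, SE 0.32, adjusted p = 0.32). Atoh8, a basic helix-loop-helix gene, had 19.5, 18.6 and 20 CPM in CON mice and 10.4, 8.16 and 9.61 in T + E2 mice (log2 fold change -1.05, SE 0.13, adjusted p = 0.00127). Hey1, a repressor that Notch signalling also induces, had 7.95, 8.35 and 12.8 CPM in CON mice and 2.56, 2.07 and 2.94 in T + E2 mice, and fell 3.84-fold (log2 fold change -1.94, SE 0.25, adjusted p = 0.00168 by edgeR). The calls of Msx2, Id4, Atoh8 and Hey1 were kept in every alternative.

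**Figure D4:**
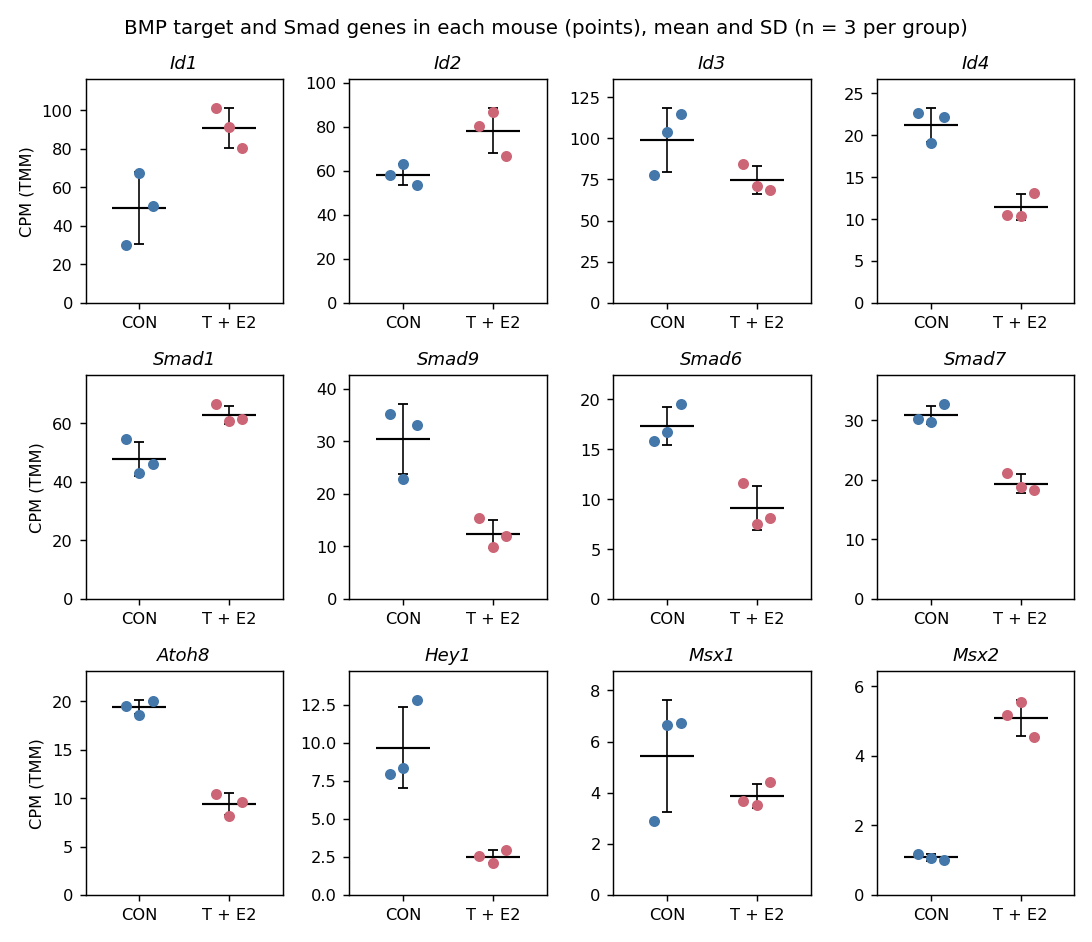
CPM of 8 BMP targets and 4 Smads (vertical axes, each from 0) in CON and T + E2 mice. Points are mice, long lines the means and bars the SD (n = 3 per group). Id1, Id2, Smad1 and Msx2 have all T + E2 mice above the CON mice, Id4, Smad9, Smad6, Smad7, Atoh8 and Hey1 have all of them below, and Id3 and Msx1 overlap.

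Markers of other cell types also differed between the groups. The sum over 4 epithelial markers was 1940 to 2180 CPM in CON mice and 2330 to 2400 in T + E2 mice, with Epcam (2.27-fold) and Cdh1 (1.27-fold) higher, Krt18 lower and Krt8 not past the test. The sum over 7 smooth muscle markers was 4210 to 5210 CPM in CON mice and 3690 to 4030 in T + E2 mice, with 2 of 7 lower. That over 4 nerve and glia markers was 68.5 to 102 and 35.7 to 56.6 CPM, with 2 of 4 lower. The sum over 4 urothelial markers was 422 to 643 CPM and 1370 to 1700 CPM, with all 3 tested members higher. Nearly all of it came from Upk1a (means of 374 and 1310 CPM) and Upk1b (151 and 239 CPM). Upk2 (0.781 and 3.61 CPM) and Upk3a (0 and 2.19 CPM) were low, so the urothelial sum was largely that of Upk1a. The Upk3a mean in T + E2 mice came mostly from replicate 2, with 6.03 CPM beside 0.346 and 0.2 in replicates 1 and 3. The 7 fibroblast markers gave 1670 to 1810 and 1750 to 2090 CPM with none past the test, and none of these markers was at 0 in all mice. The part of these cell types, and of the shifts in the prostate markers, in the BMP pathway results was not tested.

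RefSeq promoter windows, the 250 bases before a start site that RefSeq gives on build GRCm38.p6, were searched on both strands for GGCGCC, a GC-rich element known to bind Smads. The element is its own reverse complement, and 9.59% of 32851 windows held it. Of the 10 genes, 5 had a window, and those of Bmpr1a, Bmpr2 and Grem1 held the element while those of Bmp4 and Bmp5 did not. The RefSeq start can lie inside a gene as GENCODE draws it: all 250 bases of the Bmpr2 window and 141 of the Bmpr1a window lie in annotated exons of these genes. Of the wider genes, 11 of 44 with a window held it in at least 1. Some of these, such as Rgmb, Smad5 and Furin, have several windows. The share of 9.59% is per window, so it is not a like measure for this count of genes. The windows of Grem1 (chr2:113758649-113758898, minus strand), Smad9 (chr3:54755332-54755581, plus strand) and Id4 (chr13:48260866-48261115, plus strand) are shown, since they lie outside the annotated exons of their genes and stand for an antagonist near the detection limit, a Smad that fell and an Id gene that fell. Capitals mark GGCGCC.
Grem1: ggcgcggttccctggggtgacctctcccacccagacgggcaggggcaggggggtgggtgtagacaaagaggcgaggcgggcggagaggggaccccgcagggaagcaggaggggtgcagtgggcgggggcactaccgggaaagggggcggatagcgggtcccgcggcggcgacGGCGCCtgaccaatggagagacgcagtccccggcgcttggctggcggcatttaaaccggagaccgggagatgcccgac
Smad9: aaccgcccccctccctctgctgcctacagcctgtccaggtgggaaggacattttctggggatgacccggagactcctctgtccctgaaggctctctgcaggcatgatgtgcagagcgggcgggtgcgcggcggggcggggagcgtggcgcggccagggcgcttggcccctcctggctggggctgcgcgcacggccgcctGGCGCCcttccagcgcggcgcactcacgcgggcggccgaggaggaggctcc
Id4: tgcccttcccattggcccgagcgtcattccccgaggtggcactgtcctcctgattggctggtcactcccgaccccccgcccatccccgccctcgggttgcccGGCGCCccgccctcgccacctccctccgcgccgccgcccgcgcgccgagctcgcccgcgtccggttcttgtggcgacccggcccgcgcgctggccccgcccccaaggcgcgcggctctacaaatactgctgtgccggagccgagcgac
No window of the 10 or the wider genes held GTCTAGAC, the Smad palindrome, which 0.167% of all windows held. The same was true of an androgen response element, AGAACA and TGTTCT set 3 bases apart (0.00913% of all windows), and of an oestrogen response element, GGTCA and TGACC set 3 bases apart (0.0639%). A match describes the letters of the window alone.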

How the data were processed

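RNA of prostate tissue from 3 CON and 3 T + E2 mice was sequenced. The lobes taken for RNA are not given in the sources used here. For each gene the authors deposited the counts of reads, not normalized, and the FPKM they computed from them. The submitters' processing notes name TopHat, Bowtie2 and HTSeq. The genome build is not given in the sources used here. Of 34267 gene identifiers found in GENCODE release 21 (GRCm38), 80.8% had the same ends. No value columns were left unmapped (0).

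The test used edgeR 4.0.16 in R 4.3.3 on the counts: filterByExpr (minimum count 10, minimum total 15), which kept 15580 genes, TMM scaling, and the quasi-likelihood test with Benjamini-Hochberg adjustment over all tested genes, called at an adjusted p under 0.05. Every adjusted p given without a tool is from this edgeR fit. The SE is the fitted change on the log2 scale over the root of F. Each library is a separate mouse. Between mice the biological coefficient of variation was 18%. All tested genes together had a median change of -0.002 on the log2 scale.

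The alternatives were DESeq2 1.42.0, median-of-ratios and total-count scaling, no filter, a filter at an FPKM of 1, limma 3.58.1 on log2(FPKM + 0.1) and log2(FPKM + 1), a replicate block and each mouse left out. Leaving out both libraries with seminal vesicle transcripts was chosen after seeing the data. The code was tested on simulated data. Genes named from the wider list were, per role and direction, up to 3 with the largest change among those called; Smad5, Id3 and Msx1 were added after their values were seen. The 10 genes, the wider list, the markers and the motifs were chosen with earlier results of these data known. Overlapping transcripts were found with GENCODE and BLAST+ 2.17.0+ (at least 90% identity over 100 bases). Promoter sequences are from RefSeq, and the windows of the other genes of the 10 were not used here. One further prostate marker is not reported here.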

Additional observations from a re-analysis of the deposited data

How the results depend on the processing

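Of the 10 BMP genes, 1 passed the test (Id1). The number was 0 with total-count scaling, with limma on log2(FPKM + 0.1) and log2(FPKM + 1) and with a replicate block, and 0 to 1 when 1 mouse was left out. None passed with an absolute log2 fold change over 1, but 0 to 1 did when 1 mouse was left out, Id1 without CON replicate 2, and 1 did without replicate 2 of both groups. In the wider list, 9 genes rose with all mice and 5 without replicate 2 of both groups, a fit with fewer mice. Over all genes the 3061 calls became 1929 to 2741 when 1 mouse was left out and 1354 without replicate 2 of both groups. Bmp4 changed sign in that last fit, to 0.04 on the log2 scale. The cause of these changes was not tested, and the fits that left mice out also had fewer mice. The replicate numbers name different mice, and the labels state no pairing. Deviations from the group mean had correlations of -0.052, 0.028 and 0.046 between same-numbered mice. With 3 mice per group these cannot settle whether same-numbered libraries were handled together, which was not tested. Both libraries with seminal vesicle transcripts carry the number 2. With the replicate number as a block, 2174 genes passed, and the adjusted p of Id1 was 0.062. A count of 3 was set as the detection limit, a choice not estimated from these data. Some counts of Bmp5, Nog and Grem1 lay at or under it, which limits these genes.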

Other observations

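Some genes of the wider BMP list were too low for the main test and are given here because of their values. Chrdl2, a chordin-like antagonist, had 2, 18 and 11 counts in CON mice and 0, 0 and 0 in T + E2 mice. Without the filter on low counts its adjusted p was 0.0259 in edgeR, and in DESeq2 it was 0.00434. The bulk of its counts came from CON replicates 2 and 3. The largest, 18, was in CON replicate 2, a library with seminal vesicle transcripts, and no Chrdl2 value without that library is given. Tll2, a protease of the tolloid family, had 7, 5 and 6 counts in CON mice and 1, 2 and 2 in T + E2 mice, and did not pass in the unfiltered edgeR fit (adjusted p = 0.118) or in DESeq2 (adjusted p = 0.326). Bmp3 differed among the T + E2 mice, with 1.18, 6.51 and 5.14 CPM beside 8.74, 8.08 and 7.04 CPM in CON mice, and did not pass the edgeR test (log2 fold change -0.89, standard error 0.48, adjusted p = 0.232). Gdf2 and Cer1 had 0 counts in every mouse.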
